A study of Rattus norvegicus with 6 samples.

Results

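The subject is the messenger RNA of 4 proteins of regulated exocytosis in GH3 cells: the membrane-fusion SNARE proteins Snap25 (ENSRNOG00000006037), Stx1a (ENSRNOG00000029165) and Vamp2 (ENSRNOG00000006989), and the calcium sensor synaptotagmin 1, Syt1 (ENSRNOG00000006426). They were taken by a fixed list of Ensembl identifiers and are 4 of the 18413 genes in the count table. All 4 were present and all 4 passed the filter on low counts, which kept 14050 genes. The symbols come with that list. The deposited tables and the reference table used here do not pair identifiers with symbols, so the pairing could not be checked in the files.

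GH3 is a cell line from a rat pituitary tumour that makes prolactin and growth hormone. Wild-type GH3 cells, grown in F10 medium with horse serum and fetal bovine serum, were compared as 3 control libraries (treatment label NC) and 3 libraries from cultures that received thyrotropin-releasing hormone (TRH) at 100 nM. All 6 libraries come from this single tumour line, no time of TRH exposure is stated, and the labels do not say that the 3 libraries of a group came from separate cultures. The p-values therefore measure only the spread between these libraries, which may be technical. Pituitary cell markers could not be matched to identifiers and are not analysed here.

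Regulated secretion ends with the fusion of a granule with the plasma membrane. VAMP2 on the vesicle membrane zips together with syntaxin 1A and SNAP-25 on the plasma membrane into a helical bundle that pulls both membranes together. Synaptotagmin 1 sits on the vesicle, binds calcium through its C2 domains and couples the rise of cytosolic calcium to fusion. Pituitary endocrine cells use this machinery to release hormone granules, and TRH, acting through a Gq-coupled receptor, raises cytosolic calcium and triggers prolactin release from lactotrophs.

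None of the 4 transcripts passed the test for a difference between control and TRH libraries. The Snap25 transcript was at a 1.3-fold lower fitted level with TRH, the Stx1a transcript at a 1.2-fold higher level, and the Vamp2 and Syt1 transcripts were 1.05-fold and 1.17-fold lower. edgeR's quasi-likelihood test with Benjamini-Hochberg adjustment gave adjusted p = 0.498 for Snap25, 0.595 for Stx1a, 0.808 for Vamp2 and 0.649 for Syt1. The same test called 0 of the 14050 genes (0.00%) and gave 1263 genes at an unadjusted p under 0.05, while DESeq2's Wald test called 119 of 11985 genes with an adjusted p (0.993%), and 0 of the 4. For all 4, the limits of the 95% interval stayed short of a 2-fold difference in either direction. In bulk libraries, a lower value of a transcript can come from fewer cells that make it or from less of it per cell, and these cannot be told apart.

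The bases before annotated start sites were searched because factors downstream of calcium, cyclic AMP and ERK signalling, the CREB, AP-1 and EGR families, bind known short motifs. The RefSeq promoter table (build GRCr8) held 3 of the 4 genes, Stx1a, Vamp2 and Syt1. The 250 bases before the start of each were scanned on both strands for the GC box GGGCGG, the cAMP response element TGACGTCA and its core TGACG, the AP-1 site TGANTCA, the EGR site GCGTGGGCG, the CCAAT box CCAAT, the TATA box TATAAA and the Pit-1 (Pou1f1) site TATNCAT. The GC box, bound by Sp and KLF factors, is the motif that all 3 promoters hold, with 4 matches before Stx1a, 3 before Vamp2 and 3 before Syt1. It occurs in 30.5% of the 33469 RefSeq promoters of the same length. The bases G and C make up 68.4% of the Stx1a window, 68% of the Vamp2 window and 66% of the Syt1 window. This share and the shares of the other motifs below were not matched for base content, so they do not show whether a match or its absence is unusual. The lines below show, for each gene, the GC box nearest to the start, and for Vamp2 also the EGR match and the cAMP response element core, each as 30 bases on the gene's strand with the match in capitals (read on the opposite strand where it appears as the reverse complement).
Stx1a, GC box, chr12:27306488-27306517, minus strand: tgcgcagccgcgGGGCGGcatccgcgcatg
Syt1, GC box, chr7:46244216-46244245, minus strand: tgtgcagggcggGGGCGGccagctgggacc
Vamp2, GC box, chr10:54292719-54292748, plus strand: gcctgccgcgccCCGCCCacgccgcagtgc
Vamp2, EGR site, chr10:54292722-54292751, plus strand: tgccgcgcccCGCCCACGCcgcagtgcccg
Vamp2, cAMP response element core, chr10:54292748-54292777, plus strand: cccggatgcgggTGACGtgcggccgccatc
The EGR match before Vamp2 begins 57 bases before the start and overlaps the GC box shown above it. Such a match occurs in 0.478% of the promoters, and the core of the cAMP response element in 18.2%. Stx1a also holds a CCAAT box, a motif found in 34.0% of promoters, which overlaps another of its GC boxes. The full cAMP response element, the AP-1 site, the TATA box and the Pit-1 site, which occur in 1.59%, 6.34%, 12.9% and 8.73% of promoters, had no match in these 3 windows. The Stx1a and Syt1 windows also held no EGR site or cAMP response element core. These matches describe letters in a window around RefSeq start sites, and no binding was measured. RefSeq also places starts of other transcripts further upstream: of the 250 bases, 174 lie outside the annotated span of the gene for Stx1a, 3 for Syt1 and 0 for Vamp2. All the sites shown above, GC boxes included, therefore lie inside the annotated genes, as does the CCAAT box of Stx1a. Among the GC boxes, only those 170 and 158 bases before the Stx1a start lie outside the annotated span.

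The 6 libraries held 43504159 to 52134239 counts. Control replicate 1 and TRH replicate 3 stood apart from the rest in a trend with gene length. With the genes cut into 5 classes by length, the longest class deviated from the shortest by a median of 0.37 (log2) in control replicate 1, by -0.44 in TRH replicate 3 and by -0.17 to 0.15 in the others. The deposited gene lengths are 2115 bases for Snap25, 2157 for Stx1a and 2177 for Vamp2, so a trend with length moves these 3 almost equally. Syt1, at 4480 bases, lies among the longer genes.

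Per length, mean levels in GH3 cells ran in an order from Vamp2 to Syt1, with Syt1 well below the SNARE transcripts. In deposited TPM (counts divided by gene length and scaled to the same total in each library) the means over all 6 libraries were 33.1 for Vamp2, 23.9 for Stx1a, 17.7 for Snap25 and 4.1 for Syt1. Of all genes in the table, 76% had a lower mean TPM than Vamp2, 70.4% a lower one than Stx1a, 65% a lower one than Snap25 and 42.6% a lower one than Syt1. The vesicle SNARE was thus the most abundant message of the 4 and the calcium sensor the least.

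The neighbours in this order were set by the same libraries, so their ratios are given as a description, with no test. Vamp2 TPM exceeded Stx1a TPM in 6 of 6 libraries, by 1.17-fold to 1.95-fold (median 1.32). Snap25 TPM exceeded Syt1 TPM in 6 of 6 libraries, by 3.59-fold to 5.16-fold (median 4.32). Stx1a and Snap25 exchanged places: Stx1a TPM was higher in 5 of 6 libraries and lower in control replicate 1, and their control means of 22.3 ± 3.46 and 20.5 ± 2.84 TPM (SD, n = 3) lay closer together than their spread. Read counting could split reads between near-identical copies or paralogs of these families, and the sources used here do not say how shared reads were counted.

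**Figure D1:**
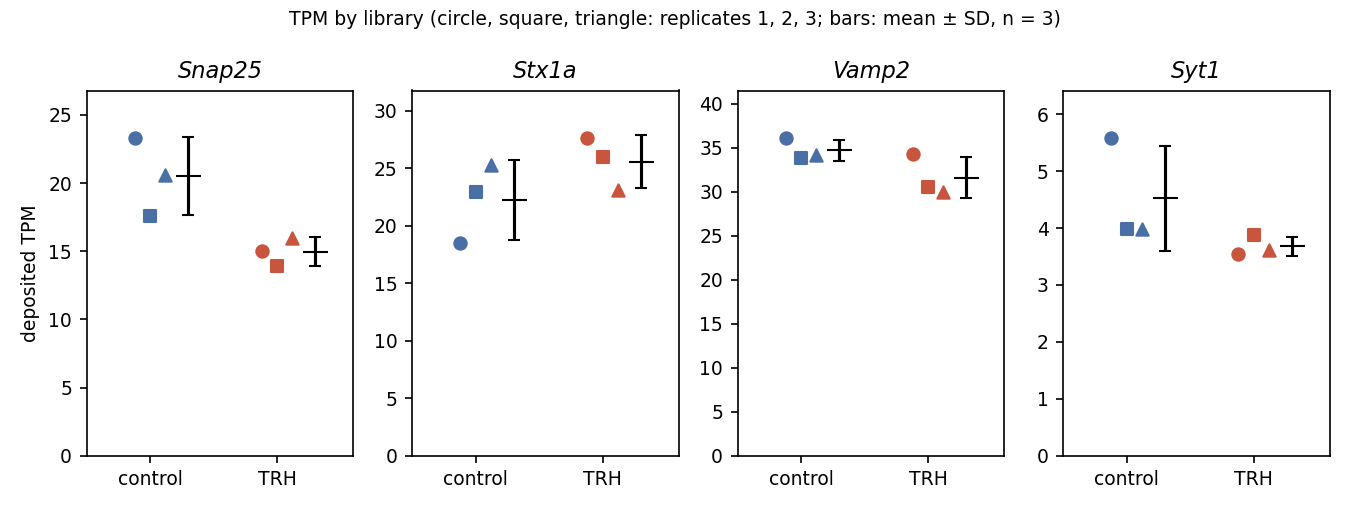
Deposited TPM (vertical axes, from 0) of Snap25, Stx1a, Vamp2 and Syt1 in each of the 3 control (blue) and 3 TRH (red) libraries, with the group mean ± SD in black. Snap25 sits between 17.6 and 23.3 TPM in controls and between 13.9 and 16 TPM with TRH. The Syt1 groups do not overlap either, at 3.99 TPM or more in controls and 3.87 TPM or less with TRH. The Vamp2 and Stx1a groups overlap, and control replicate 1 is the highest for Syt1 and the lowest for Stx1a.

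Snap25 encodes the plasma-membrane SNARE that gives 2 of the helices of the fusion bundle, and it was the transcript with the smallest p of the 4. Snap25 read counts were 1264, 1085 and 1225 in control replicates 1 to 3 and 1013, 816 and 1037 in TRH replicates 1 to 3. Scaled for library size with TMM factors, as CPM, these were 29, 23.7 and 26.1 in controls and 19.5, 18 and 23.3 with TRH. The lowest control lay just above the highest TRH library, so the groups did not overlap, and all 3 TRH libraries were below all 3 controls on the TPM scale too.

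Control libraries averaged 26.3 ± 2.63 CPM of Snap25, and TRH libraries 20.3 ± 2.76 CPM (SD, n = 3 per group). For Snap25 edgeR gave a log2 fold change of -0.37 (SE 0.14, 95% interval -0.69 to -0.06), with unadjusted p = 0.0258 and Benjamini-Hochberg adjusted p = 0.498. By unadjusted p Snap25 ranked 728 among the 14050 genes. It was the 1 member of 4 with an unadjusted p under 0.05 and a lower level, against 6.95% of all genes tested with such a value. Among 2199 other genes of similar abundance (within 0.5 log2 CPM), 89.4% had a smaller absolute log2 fold change than Snap25. Since the CPM groups did not overlap, leaving out libraries could hardly change the direction, only the size. With each library left out, the log2 fold change ran from -0.49 without TRH replicate 3 to -0.29 without TRH replicate 2. Without control replicate 1 and TRH replicate 3 together it was -0.41 (edgeR adjusted p = 0.624). The unadjusted edgeR p of Snap25 was above 0.05 in 4 of these 6 fits: leaving out control replicate 1 or 3 gave 0.0733 or 0.0622, and leaving out TRH replicate 1 or 2 gave 0.099 or 0.102.

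Stx1a encodes syntaxin 1A, the other plasma-membrane partner, and its fitted difference had the opposite sign. Stx1a read counts were 1026, 1443 and 1538 in control replicates 1 to 3 and 1900, 1555 and 1526 in TRH replicates 1 to 3. The CPM values were 23.5, 31.6 and 32.7 in controls and 36.6, 34.2 and 34.3 with TRH. Control replicate 1 was far below the other 5 libraries, and controls 2 and 3 lay close under the TRH libraries. The CPM groups did not overlap, but on the TPM scale they did, with TRH replicate 3 at 23.1 TPM and control replicate 3 at 25.3 TPM.

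Control libraries averaged 29.3 ± 5.02 CPM of Stx1a, and TRH libraries 35.1 ± 1.36 CPM (SD, n = 3 per group). The log2 fold change in edgeR was 0.26 (SE 0.14, 95% interval -0.06 to 0.58, unadjusted p = 0.0984, Benjamini-Hochberg adjusted p = 0.595). Without control replicate 1 it was 0.12 (edgeR adjusted p = 0.976), and without control replicate 1 and TRH replicate 3 together 0.14 (edgeR adjusted p = 0.77). The size of the Stx1a difference therefore changed with 1 control library, while Snap25 without that library was at -0.30 (edgeR adjusted p = 0.926).

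Vamp2 encodes the vesicle SNARE synaptobrevin 2, and its transcript was the steadiest of the 4. Vamp2 read counts were 2020, 2144 and 2097 in control replicates 1 to 3 and 2384, 1842 and 1996 in TRH replicates 1 to 3. The CPM values were 46.3, 46.9 and 44.6 in controls and 46, 40.5 and 44.9 with TRH. The groups overlapped, and TRH replicate 2 was the lowest library.

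Control libraries averaged 45.9 ± 1.17 CPM of Vamp2, and TRH libraries 43.8 ± 2.87 CPM (SD, n = 3 per group). The edgeR log2 fold change of -0.07 (SE 0.10, 95% interval -0.29 to 0.15) had an unadjusted p of 0.49 and a Benjamini-Hochberg adjusted p of 0.808. This interval corresponds to 0.819-fold to 1.11-fold, the narrowest of the 4. The spread within groups was 4.88% of the mean for Vamp2, and 9.5% of the genes of similar abundance had a smaller one. Without control replicate 1 and TRH replicate 3 together the log2 fold change was -0.08 (edgeR adjusted p = 0.875). Counting error alone gives 2.19% at the mean Vamp2 count.

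Syt1 encodes the calcium sensor and had the fewest reads of the 4. Syt1 read counts were 642, 521 and 503 in control replicates 1 to 3 and 507, 482 and 496 in TRH replicates 1 to 3. The CPM values were 14.7, 11.4 and 10.7 in controls and 9.77, 10.6 and 11.2 with TRH. Control replicate 1 stood above the other 5 libraries, which lay close together. The CPM groups overlapped, since TRH replicate 3 was above control replicate 3, whereas the TPM groups did not, at 3.99 TPM or more in controls and 3.87 TPM or less with TRH.

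Control libraries averaged 12.3 ± 2.14 CPM of Syt1, and TRH libraries 10.5 ± 0.696 CPM (SD, n = 3 per group). For Syt1 edgeR gave a log2 fold change of -0.22 (SE 0.16, 95% interval -0.58 to 0.13, unadjusted p = 0.188, Benjamini-Hochberg adjusted p = 0.649). Without control replicate 1 it was -0.07 (edgeR adjusted p = 0.986), and without control replicate 1 and TRH replicate 3 together -0.12 (edgeR adjusted p = 0.86). With offsets that remove each library's trend with gene length it was -0.11 (edgeR adjusted p = 0.797), while the same offsets left Snap25 at -0.38, Stx1a at 0.26 and Vamp2 at -0.07. For genes within 10% of the length of Syt1 the median log2 fold change was -0.10, against 0.01 for genes within 10% of the length of Snap25.

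**Figure D2:**
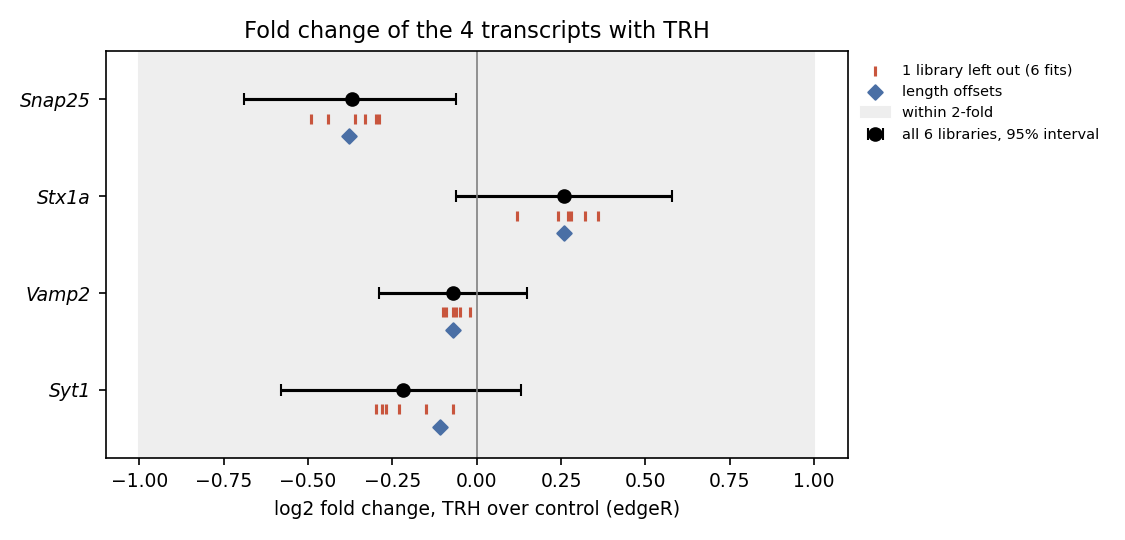
Log2 fold change, TRH over control, from edgeR for each of the 4 transcripts (black points with 95% intervals), with the 6 fits that leave out 1 library each (red ticks) and the fit with length offsets (blue diamonds). All 4 intervals lie inside the grey 2-fold band, the Snap25 interval of -0.69 to -0.06 lies below 0, and the others include 0.

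Read as a group, 2 of the 4 transcripts (Snap25 lower, Stx1a higher) had CPM values that did not overlap between control and TRH libraries. Of all genes tested, 10.2% were lower without overlap and 6.80% higher without overlap. On the TPM scale it was again 2 of 4, but Snap25 and Syt1, both lower, against 11.9% of genes that were lower without overlap. With the length trend removed it was Snap25 and Stx1a, against 20.4% of genes. The median log2 fold change of the 4 was -0.15, beside 0.00 for all genes tested, and the median absolute log2 fold change of all genes tested was 0.16. Of all genes tested, 10.7% had a log2 fold change below that of Snap25 and 88.3% one below that of Stx1a, so neither stood at an extreme. Among genes of similar abundance, 89.4% had a smaller absolute log2 fold change than Snap25 and 80.5% a smaller one than Stx1a. For Vamp2 and Syt1 these shares were 29.2% and 64.2%.

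**Figure D3:**
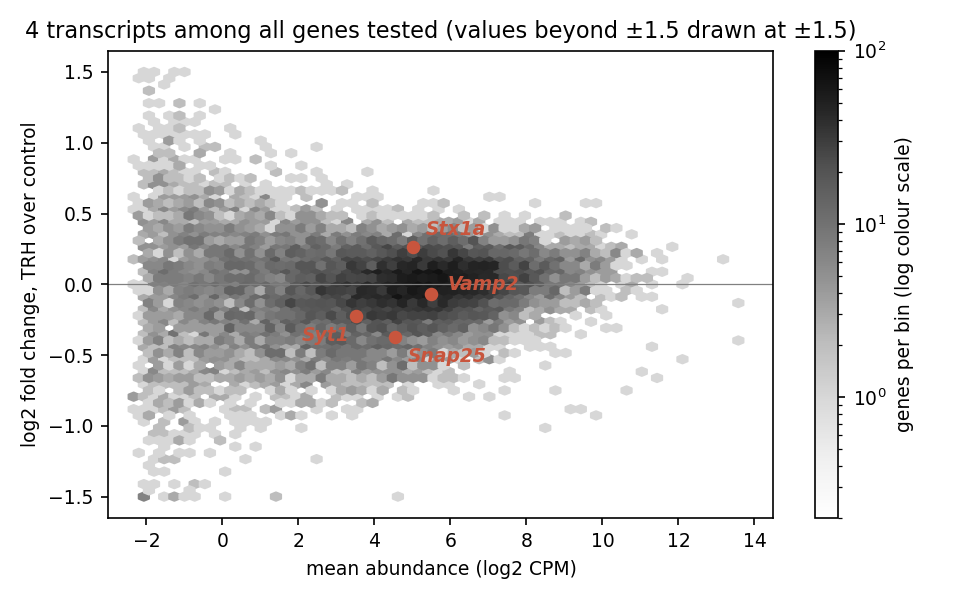
Log2 fold change, TRH over control (vertical axis, values beyond ±1.5 drawn at the limit), against mean abundance in log2 CPM (horizontal axis) for the 14050 genes tested, as counts of genes per bin in grey, with the 4 transcripts in red. The 4 lie within the cloud of genes of their abundance, Snap25 below its centre and Stx1a above it.

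The depth was enough that counting was not the main source of error. Counting error alone was 3.05% of the mean count for Snap25, 2.58% for Stx1a and 4.36% for Syt1, whereas the observed spread within groups was 11.6%, 11.4% and 14% of the mean CPM. Genes of similar abundance had median spreads of 11.6%, 11% and 13.6%, close to these. The lowest count, 482 for Syt1 in TRH replicate 2, has an exact 95% Poisson interval of 440 to 527. These intervals cover counting error only.

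The relative levels of the 4 messages were compared as the ratio of each TPM to that of Snap25 within the same library. Such a ratio does not depend on how libraries are scaled. It combines the differences of both its transcripts, described above, and protein was not measured. The ratio of Stx1a to Snap25 was 0.796, 1.3 and 1.23 in control replicates 1 to 3 and 1.84, 1.87 and 1.44 in TRH replicates 1 to 3. Every TRH library was above every control. Its mean was 1.11 ± 0.275 over controls and 1.72 ± 0.238 over TRH libraries (SD, n = 3 per group), a difference of 0.65 in mean log2 ratio. The two-sided exact permutation test gave p = 0.1, the smallest that 3 against 3 libraries allow, and 0.3 after adjustment over the 3 ratios. This design cannot reach 0.05 for a single ratio. Without control replicate 1 the difference in mean log2 ratio was 0.43, and without it and TRH replicate 3 it was 0.55.

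The ratio of Vamp2 to Snap25 was 1.55, 1.92 and 1.66 in control replicates 1 to 3 and 2.29, 2.19 and 1.87 in TRH replicates 1 to 3. The groups overlapped at TRH replicate 3. The difference in mean log2 ratio was 0.31 (two-sided exact permutation p = 0.2, 0.3 adjusted). The ratio of Syt1 to Snap25 was 0.24, 0.227 and 0.194 in controls and 0.236, 0.279 and 0.226 with TRH. These values overlapped widely, with a difference of 0.17 in mean log2 ratio (exact permutation p = 0.5, 0.5 adjusted). Syt1 is longer than Snap25 (4480 against 2115 bases), so a trend with gene length does not cancel in this ratio. With length offsets the Syt1 difference was 0.27 (exact permutation p = 0.2), while those of Stx1a and Vamp2 stayed at 0.65 and 0.31. All 3 ratios share the Snap25 value of each library, so they are not independent of each other.

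**Figure D4:**
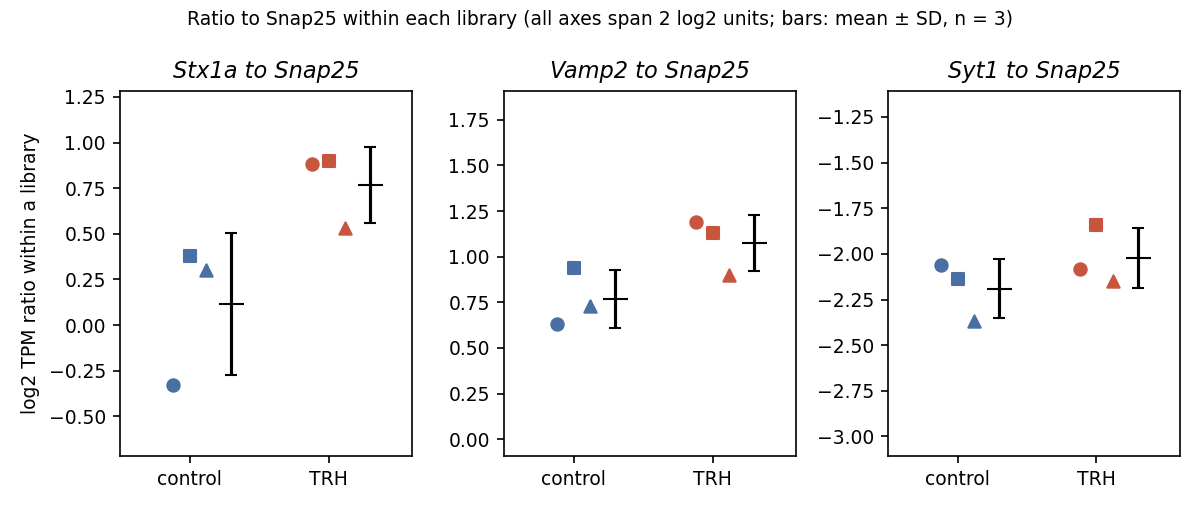
Log2 ratio of the TPM of Stx1a, Vamp2 and Syt1 to that of Snap25 within each library (vertical axes, all spanning 2 log2 units), for 3 control (blue) and 3 TRH (red) libraries with the group mean ± SD in black. The Stx1a ratio is higher in all 3 TRH libraries than in all 3 controls, and the Vamp2 and Syt1 ratios overlap between groups.

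Across the 6 libraries, Stx1a and Syt1 varied in opposite directions. Pearson's r of their log2 CPM was -0.98 (exact permutation p = 0.00833, 0.05 adjusted over the 6 pairs of members) and Spearman's rho was -0.83 (exact permutation p = 0.0583, 0.206 adjusted). Without control replicate 1 and TRH replicate 1, the libraries farthest from the Stx1a median, r was -0.51. Leaving out the farthest libraries narrows the Stx1a range, which can weaken r by itself, so this fit cannot decide what the relation rests on. Without control replicate 1 and TRH replicate 3, r was -0.97 over the remaining 4 libraries. With the length trend removed r was -0.71. Of all genes tested, 0.285% had an r with Stx1a as low as that of Syt1. The adjusted p of Pearson's r was at the threshold of 0.05, not under it. Control and TRH libraries were pooled in these correlations, and group means were not removed. Each r therefore also carries the group difference, with edgeR log2 fold changes of 0.26 for Stx1a, -0.22 for Syt1 and -0.37 for Snap25. Correlation within groups was not tested. For the other 5 pairs r was 0.75 for Snap25 with Syt1 and -0.76 for Snap25 with Stx1a (exact permutation p = 0.131 adjusted for both), and from -0.34 to 0.62 for the 3 pairs with Vamp2 (adjusted p of 0.271 or more, exact permutation). Without the 2 libraries farthest from the median of the first gene of the pair, r was 0.71 for Snap25 with Syt1, -0.82 for Snap25 with Stx1a, -0.40 for Snap25 with Vamp2, -0.71 for Stx1a with Vamp2 and 0.48 for Vamp2 with Syt1, so the Snap25 and Vamp2 relation changed sign.

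The genes whose log2 CPM followed a member most closely over the 6 libraries are known here by identifier only. For Stx1a it was ENSRNOG00000003302 (3047 bases, Pearson's r 0.998, log2 fold change 0.14), for Syt1 ENSRNOG00000003625 (3325 bases, r 0.995, log2 fold change -0.20) and for Snap25 ENSRNOG00000062181 (1369 bases, r 0.990, log2 fold change -0.76). For Vamp2 the highest r was 0.989. Each of these values is the highest among the 14050 genes tested, over only 6 libraries. Such a selection favours values near 1, and no test was made. For Stx1a and Syt1, control replicate 1 stood apart from the rest, and whether the match rests on that library was not tested. An r above 0.9 was reached with Stx1a by 3.67% of genes, with Syt1 by 2.40%, with Snap25 by 0.989% and with Vamp2 by 0.441%.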

How the data were processed

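RNA-seq of 6 GH3 libraries was analysed, 3 control and 3 given 100 nM TRH. The authors' first table holds raw counts per Ensembl gene, and their second holds identical counts (100% of values), the length of every gene and TPM. The authors' deposited TPM equal count over length, rescaled per library, as recomputed here. HISAT2 and bedtools are listed, without version or role, per the submitters' processing notes. The build, annotation, strand setting, counting rule and source of the lengths, not given in the sources used here, could not be taken into account.

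Differences were tested with edgeR 4.0.16 in R 4.3.3 (TMM, filterByExpr, quasi-likelihood, no replicate block) on all 14050 genes kept, with Benjamini-Hochberg adjustment at 0.05. The alternatives were DESeq2 1.42.0, limma 3.58.1 on voom values or log2(TPM + pseudocount), other scaling and filters, length offsets (loess span 0.5), a block, and libraries left out. DESeq2 filtered independently at 0.05. The code was tested on simulated data without a trend with gene length. There edgeR called 30% of 100 genes changed 1.5-fold and 78% of 100 changed 2-fold, and DESeq2 called 49% and 93%. False calls among unchanged genes numbered 15 in edgeR and 42 in DESeq2. Genes named are the 4 members and, by a fixed rule, the closest gene in log2(CPM + 0.1) for each, printing at most 2 higher and 2 lower identifiers. The members, lists and motifs were chosen with earlier results of these data known. Lists of other SNARE, docking and marker genes were not analysed, as no identifier matched a symbol. Libraries of a group differed by more than sampling noise (chi-square over degrees of freedom of at least 13.7 in every pair). Equal replicate numbers were not treated as pairs.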

Additional observations from a re-analysis of the deposited data

How the results depend on the processing

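The fold changes of the 4 transcripts kept their direction in all 17 alternatives each, and none passed adjustment in any: adjusted p ran from 0.36 to 0.926 for Snap25, 0.427 to 0.976 for Stx1a, 0.678 to 0.986 for Vamp2 and 0.508 to 0.986 for Syt1. With 1 library left out, the log2 fold change ran from -0.49 to -0.29 for Snap25, 0.12 to 0.36 for Stx1a, -0.10 to -0.02 for Vamp2 and -0.30 to -0.07 for Syt1. Log2(TPM + 1) and log2(TPM + 0.1) in limma gave -0.42 and -0.44 for Snap25, and log2(TPM + 1) gave 0.20 for Stx1a. The number of genes called, 0 in edgeR, was 119 in DESeq2's Wald test and 1 without control replicate 1 and TRH replicate 3 together. With 1 library left out it was 0 to 1, the 1 without TRH replicate 3. The cause was not tested.

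Under a replicate block the edgeR count stayed at 0 genes, and the log2 fold changes were -0.38 for Snap25, 0.27 for Stx1a, -0.07 for Vamp2 and -0.21 for Syt1. The block changed no call. Deviations of equal-numbered libraries correlated at 0.29, -0.26 and -0.12 for numbers 1 to 3. These deviations also carry each library's trend with gene length, so they cannot decide whether equal numbers were pairs. The labels do not tie equal numbers to a shared culture or day, so the numbers were not read as pairs. The ratio differences kept their direction in all 10 alternatives each. They ran from 0.43 to 0.78 for Stx1a, 0.24 to 0.39 for Vamp2 and 0.08 to 0.29 for Syt1, relative to Snap25. Not all of these alternatives were able to differ. Gene length cancels from a difference between groups, so the ratio of counts had to return the main value. The block averages differences between equal-numbered libraries, which equals the difference of the group means. Both gave 0.65 for Stx1a, 0.31 for Vamp2 and 0.17 for Syt1. For Stx1a every TRH ratio exceeded every control ratio, which fixes the sign when any library is removed.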
